A study of Mus musculus with 24 samples.

Results

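The genes carried by the mouse mitochondrial genome were followed through a purification of cytosolic ribosomes. Members were all genes whose symbol begins with mt-, which gave 37 of the 53946 genes in the count table. They comprised 13 protein-coding genes, 2 rRNA genes and 22 tRNA genes. The tissue was the ventral otocyst, the part of the embryonic inner ear that holds the cochlea, at embryonic day 14.5 in mice of the strain C57BL/6J x 129X1/SvJ. TRAP, translating ribosome affinity purification, isolates ribosomes with an antibody to eGFP, here fused to the ribosomal protein L10a and directed to the Fgf20-Cre lineage. The groups were TRAP mut (Fgf20-/-, n = 8), TRAP het (Fgf20+/-, n = 8), pre-TRAP mut (Fgf20-/-, n = 4) and pre-TRAP het (Fgf20+/-, n = 4). All groups carried at least 1 disrupted Fgf20 allele, so none was wild type, and RNA for each library came from 3 to 7 pooled embryos that shared a genotype. Each group was divided evenly between 2 experiments. The labels give TRAP and pre-TRAP libraries the same extraction text, and pre-TRAP is read here as RNA from before the purification.

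Mitochondria transcribe their own small circular genome from both strands as long precursors, which are cut into mRNAs, rRNAs and tRNAs mostly at the tRNAs that separate them. The mRNAs encode subunits of the respiratory chain and of ATP synthase, and they are translated inside the organelle by ribosomes built from the 2 rRNA members and imported proteins. Cytosolic ribosomes, which contain L10a, do not translate them, so the level of these RNAs after TRAP is a common check on the purification. Most mRNA and rRNA members lie on the heavy-strand transcript, whereas mt-Nd6 and 8 tRNAs come from the light-strand transcript.

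Libraries held 30745166 to 53374796 counts. Fgf20 had 0.825 to 3.02 CPM (counts divided by the TMM-scaled library total and set to the usual common depth) in TRAP mut and 3.11 to 5.92 CPM in TRAP het. It had 0.139 to 0.289 CPM in pre-TRAP mut and 0.382 to 1.72 CPM in pre-TRAP het, so the genotypes did not overlap within either method, although in TRAP the log2 fold change of -0.94 ± 0.22 (SE) did not pass the test (adjusted p = 0.188 in edgeR). Of the 6 markers of the prosensory domain, 6 were called higher in TRAP than in pre-TRAP, where 27.9% of all genes tested were. The threshold used throughout was a Benjamini-Hochberg adjusted p under 0.05 in edgeR's quasi-likelihood test. TRAP libraries 3, 4, 5 and 6 had the highest levels of 8 periotic mesenchyme genes, with 565 to 1206 CPM before TMM scaling. The other 12 TRAP libraries had 272 to 453 CPM. The 4 were taken by rank after the data were seen, not at a clear gap, and several results are also given without them. Since embryos were pooled, p-values measure the spread between libraries of pooled embryos. Whether a TRAP and a pre-TRAP library came from the same pool is not labelled, and the tests treat all libraries as independent.

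Mitochondrially encoded RNA was reduced to a few percent of its pre-TRAP share in TRAP. The 13 protein-coding genes took 0.0191% ± 0.0108 of all counts in TRAP libraries (SD, n = 16) and 0.688% ± 0.109 in pre-TRAP libraries (SD, n = 8), a 36.0-fold lower share in TRAP. The 2 rRNAs took 0.00219% ± 0.00116 in TRAP and 0.0871% ± 0.0165 in pre-TRAP, 39.7-fold lower. The 22 tRNAs together took 0.000260% ± 0.000238 in TRAP and 0.00225% ± 0.000847 in pre-TRAP, 8.66-fold lower. In no class did a TRAP library reach the lowest pre-TRAP library. For protein-coding genes the lowest, median and highest shares were 0.00853%, 0.0195% and 0.0354% in TRAP mut and 0.00576%, 0.0173% and 0.0425% in TRAP het. The 4 pre-TRAP mut libraries had 0.569%, 0.598%, 0.609% and 0.805%, and the 4 pre-TRAP het libraries 0.638%, 0.685%, 0.721% and 0.881%. Residual mitochondrial RNA therefore varied several-fold among TRAP libraries of the same genotype. At this depth the 95% Wilson interval of a library's share reached 4.5% of its value on either side for protein-coding genes, 12.3% for rRNAs and 86.2% for tRNAs in TRAP, which covers counting error only. The spread among TRAP libraries was thus far wider than counting error for the mRNAs and rRNAs.

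**Figure D1:**
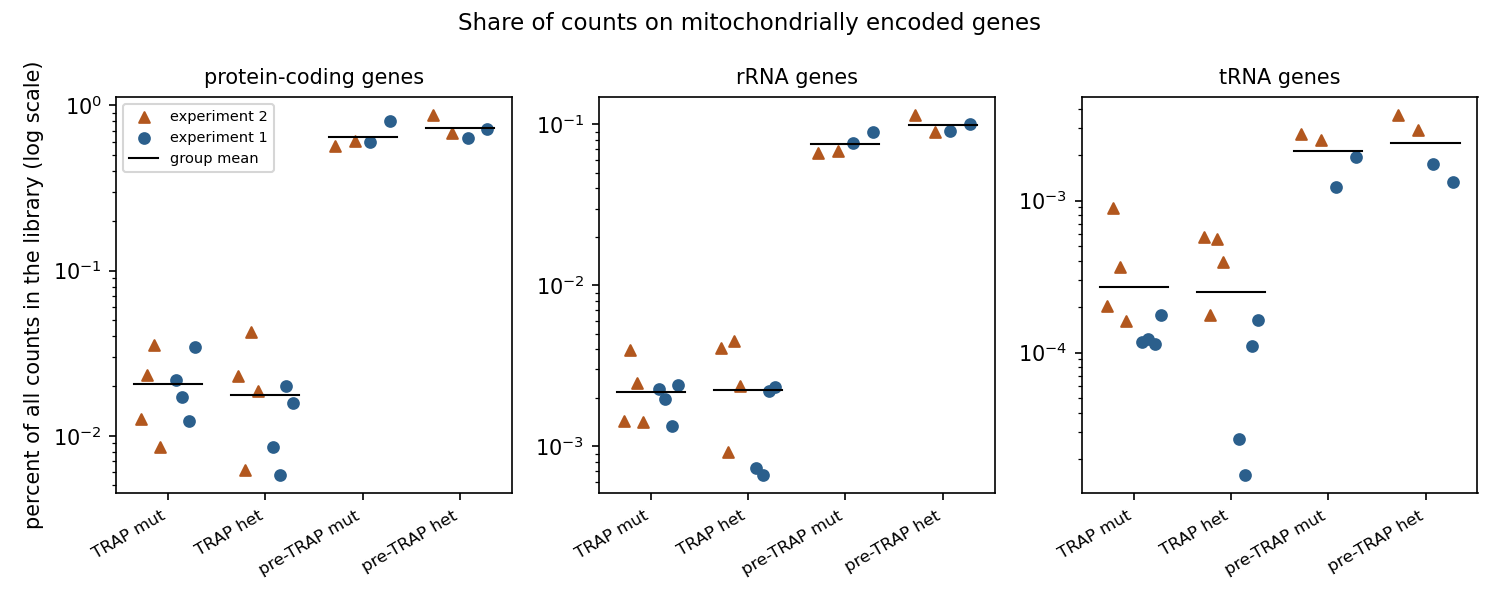
Percent of all counts in each library that fell on protein-coding, rRNA and tRNA members (log scale), by group, with triangles for experiment 2, circles for experiment 1 and a line at the group mean. In each class all 16 TRAP libraries lie below all 8 pre-TRAP libraries, and the gap is narrowest for tRNAs.

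The reduction was present in each experiment. In experiment 2 the protein-coding share averaged 0.0213% in TRAP and 0.686% in pre-TRAP, 32.3-fold lower, and in experiment 1 it averaged 0.0170% in TRAP and 0.690% in pre-TRAP, 40.6-fold lower. The rRNA share was 32.0-fold lower in TRAP in experiment 2 and 51.5-fold lower in experiment 1. The tRNA share was 7.11-fold lower in TRAP in experiment 2 and 14.7-fold lower in experiment 1. Without TRAP libraries 3, 4, 5 and 6 the mean TRAP shares were 0.0145% for protein-coding genes, 0.00196% for rRNAs and 0.000246% for tRNAs. Markers of blood, vessel and immune cells were also lower in TRAP than in pre-TRAP. Of all genes tested, 31.2% were called lower and 27.9% higher. All 8 erythroid genes were called lower, and their summed level was 723 to 1624 CPM in TRAP mut and 467 to 1248 CPM in TRAP het, against 6937 to 16330 CPM in pre-TRAP mut and 7076 to 14206 CPM in pre-TRAP het. All 5 endothelial genes were lower, summing to 2.89 to 12.4 CPM in TRAP mut and 3.45 to 13.3 CPM in TRAP het, and to 34.1 to 36.9 CPM in pre-TRAP mut and 32.2 to 42.1 CPM in pre-TRAP het. All 4 macrophage genes were lower, summing to 1.40 to 3.17 CPM in TRAP mut and 1.20 to 2.92 CPM in TRAP het, and to 10.7 to 16.1 CPM in pre-TRAP mut and 8.50 to 16.9 CPM in pre-TRAP het. Of 8 mesenchyme genes 6 were lower and 1 was higher, and their sum was 327 to 1198 CPM in TRAP mut and 252 to 932 CPM in TRAP het, against 847 to 1039.9 CPM in pre-TRAP mut and 797 to 1248 CPM in pre-TRAP het. Of 4 muscle genes 3 were lower, of 4 cartilage genes 2 were lower, and of 4 glial genes 2 were higher and 2 lower. All 6 neuron genes were higher, and of 5 otic epithelium genes 3 were higher and 1 lower. The part of these cells in the mitochondrial shares was not tested. The tag was directed to the Fgf20-Cre lineage. Cells without the tag, fewer cells of a type and less RNA per cell cannot be told apart in such tissue pools.

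Gene by gene, every protein-coding and rRNA member fell in TRAP relative to pre-TRAP. Of the 37 members, 23 passed the filter on low counts (all 13 protein-coding genes, both rRNAs and 8 tRNAs), and all 23 were called lower and 0 higher. Across all 24242 genes tested 31.2% were called lower and 27.9% higher, with a median log2 fold change of -0.01. For each of the 13 mRNAs and both rRNAs every TRAP library lay below every pre-TRAP library, and this also held for 4 tRNAs (mt-Te, mt-Tp, mt-Ts1 and mt-Tm, which was too rare to test). How often other genes separated in this way was not counted, so these numbers only describe the members. A rare tRNA could pass the filter through its pre-TRAP counts alone, so the number of tRNAs among the calls is no support. The median log2 fold change, TRAP over pre-TRAP, was -5.79 over the 13 protein-coding members, which ranged between -6.25 and -4.25 with standard errors of 0.19 to 0.33. Their largest adjusted p in edgeR's quasi-likelihood test was 1.01e-11. Called separately, 23 members were lower in TRAP in mut (24.1% of all genes lower) and 22 in het (24.2% of all genes lower), the exception in het being mt-Ta with a log2 fold change of -1.0 ± 0.68 (SE) and an adjusted p of 0.250 in edgeR. These counts were 21 to 23 in mut and 21 to 22 in het when 1 library was left out, the lowest without pre-TRAP library 22 in mut and without pre-TRAP library 21 in het. Without TRAP libraries 3, 4, 5 and 6 both were 22.

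**Figure D2:**
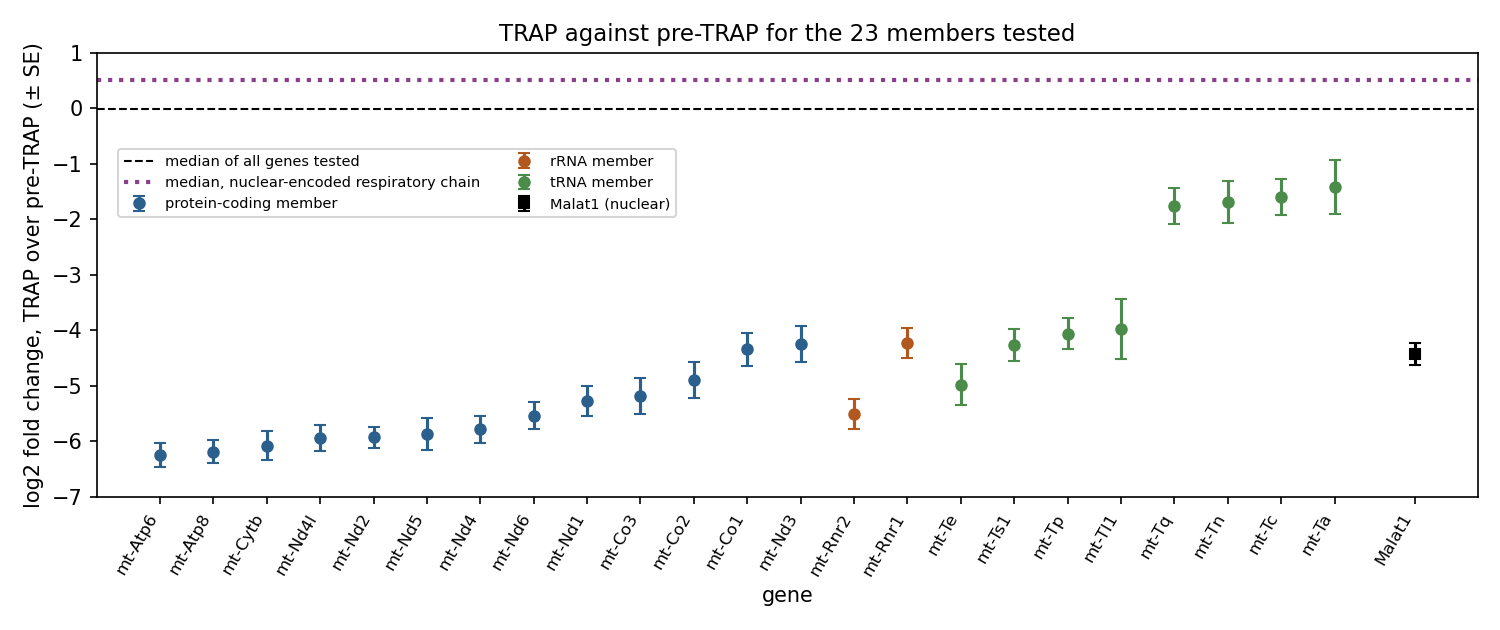
Log2 fold change, TRAP over pre-TRAP, of each of the 23 members tested, with its standard error, ordered within its class, beside nuclear Malat1 at the right. The dashed line is the median of all genes tested at -0.01 and the dotted line the median of the nuclear-encoded respiratory chain genes at 0.52. The protein-coding members lie between -6.25 and -4.25 and 4 light-strand tRNAs lie above -2.

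The ATP synthase subunits, complex V, had the lowest estimates. mt-Atp6, part of the proton channel, had 6.44, 14.4 and 27.2 CPM as its lowest, median and highest values in TRAP, against 785, 1005 and 1450.0 CPM in pre-TRAP. The highest TRAP library was thus far below the lowest pre-TRAP library, with a log2 fold change of -6.25 ± 0.22 (SE), so 1.31% of the pre-TRAP level was left. mt-Atp8, a small accessory subunit whose reading frame overlaps that of mt-Atp6, had 0.601, 1.73 and 3.31 CPM in TRAP and 85.5, 137 and 185 CPM in pre-TRAP. Its log2 fold change was -6.19 ± 0.21, leaving 1.37%. Because the models overlap, reads in the shared stretch cannot be told apart.

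mt-Cytb, the cytochrome b of complex III, had 4.15, 9.97 and 33.8 CPM in TRAP and 546, 862 and 1205 CPM in pre-TRAP. The groups did not overlap, and its log2 fold change was -6.08 ± 0.26. The 7 subunits of complex I, the NADH dehydrogenase that feeds electrons into the chain, had log2 fold changes of -5.94 to -4.25 with a median of -5.79. mt-Nd2 showed the smallest standard error of any protein-coding member, with 1.41, 3.12 and 5.29 CPM in TRAP and 142, 181 and 269 CPM in pre-TRAP. That is a log2 fold change of -5.93 ± 0.19. mt-Nd5 had 2.41, 4.47 and 21.5 CPM in TRAP and 276, 319 and 462 CPM in pre-TRAP, a log2 fold change of -5.87 ± 0.29. mt-Nd6, which overlaps mt-Nd5 on the opposite strand, had 0.886, 1.5 and 5.69 CPM in TRAP and 58.4, 86.6 and 135 CPM in pre-TRAP, a log2 fold change of -5.54 ± 0.25. Whether counting used strand is not stated, so antisense reads of mt-Nd5 and mt-Nd6 cannot be told apart.

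The least reduced mRNAs were mt-Nd3 of complex I and mt-Co1 of complex IV. mt-Nd3 had 0.496, 2.20 and 8.75 CPM in TRAP and 35.8, 51.5 and 92.0 CPM in pre-TRAP. No library of one method reached the other, with a log2 fold change of -4.25 ± 0.32 and 5.25% left. mt-Co1, the catalytic core subunit of cytochrome c oxidase, had 14.9, 60.5 and 128 CPM in TRAP and 839, 1168 and 1575 CPM in pre-TRAP. Its log2 fold change was -4.35 ± 0.30, with 4.92% left. mt-Co2 and mt-Co3, the other core subunits of that oxidase, stood at -4.89 ± 0.32 and -5.18 ± 0.33. Thus all 3 complex IV mRNAs kept a larger share than either complex V mRNA, at 2.76% to 4.92% of pre-TRAP against 1.31% to 1.37%, although no test between genes was made. Across the 13 mRNAs the log2 fold change had a Pearson's r of 0.03 with gene length and of 0.02 with the log2 pre-TRAP level per kb, given as descriptions over 13 genes that share all libraries.

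Both mitochondrial rRNAs were lower in TRAP as well, but not equally. mt-Rnr2, the RNA of the large ribosomal subunit, had 6.19, 18.8 and 34.9 CPM in TRAP and 555, 835 and 1154 CPM in pre-TRAP. mt-Rnr1, the RNA of the small subunit, had 0.444, 2.56 and 6.01 CPM in TRAP and 34.3, 52.5 and 67.7 CPM in pre-TRAP. The methods did not overlap for either gene. The log2 fold change was -5.51 ± 0.27 for mt-Rnr2 and -4.23 ± 0.27 for mt-Rnr1.

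The tRNAs were counted sparsely, and the 8 that passed the filter had fitted log2 fold changes between -4.98 and -1.41. Libraries of polyA RNA are also not how tRNAs are usually measured. mt-Te, mt-Ts1, mt-Tp and mt-Tl1, which carry glutamate, serine, proline and leucine, had log2 fold changes of -4.98, -4.27, -4.06 and -3.98. mt-Te had at most 5 counts and mt-Tl1 at most 4 in any TRAP library, and most TRAP libraries had 0 counts of mt-Tl1, so these fitted values are imprecise and depend on the prior count. Of the others, the model of mt-Ts1 overlaps that of mt-Co1, whose log2 fold change of -4.35 is close to it. mt-Tq, mt-Tn, mt-Tc and mt-Ta, which carry glutamine, asparagine, cysteine and alanine, are all light-strand tRNAs that lie between mt-Nd1 and mt-Co1. Their log2 fold changes were -1.76 ± 0.32, -1.69 ± 0.38, -1.59 ± 0.33 and -1.41 ± 0.49, leaving 29.5%, 30.9%, 33.2% and 37.5% of the pre-TRAP level. Of these calls, only that of mt-Tc held under each of the 33 alternatives run. In experiment 2 alone mt-Tn was at -1.04 (adjusted p = 0.106 in edgeR) and mt-Ta at -0.84 (adjusted p = 0.260), and with no experiment term mt-Tq was at -1.54 (adjusted p = 0.0754) and mt-Ta at -1.08 (adjusted p = 0.208).

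mt-Tn had 0.0248, 0.304 and 1.2 CPM in TRAP and 0.793, 1.09 and 1.48 CPM in pre-TRAP. mt-Tc had 0.0261, 0.214 and 0.742 CPM in TRAP and 0.482, 0.649 and 1.16 CPM in pre-TRAP. For both, the highest TRAP libraries reached into the pre-TRAP range. As a share of all counts on members, mt-Tn made up 0.170% ± 0.117 in TRAP (SD, n = 16) and 0.0142% ± 0.00288 in pre-TRAP (SD, n = 8). Also on the light strand, mt-Ts1 and mt-Tp had 5.20% and 5.99% of their pre-TRAP level in TRAP.

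The other 14 tRNAs were too rare to test, with at most 23 counts over all TRAP libraries (mt-Ty) and at most 67 over all pre-TRAP libraries (mt-Tm). The TRAP mean lay below the pre-TRAP mean for 13 of them, and mt-Ts2 had 0 counts in all 24 libraries, which allows up to 0.00499 CPM over the summed TRAP libraries and 0.00963 CPM over the summed pre-TRAP libraries (3 counts each). mt-Tr had 0 counts in TRAP and 11 in pre-TRAP. With 3 counts over the group as the limit in TRAP, its level was 7.08-fold lower there, with no allowance for error in the 11 counts. mt-Th had 0 counts in TRAP and 2 in pre-TRAP, too few for a fold.

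Among the 12164 genes with a pre-TRAP mean of at least 5 CPM, mitochondrial members stood at the low end of the TRAP comparison. Ordered by log2 fold change, the 13 mRNAs and both rRNAs held ranks between 2 and 32, and members made up 6 of the lowest 10 genes and 15 of the lowest 30. Gm10925, Gm10222, Gm28437 and Gm28661, models that follow members as described below, held ranks 1, 6, 18 and 22. The other low genes were thus not all independent of the members. Malat1, a nuclear long non-coding RNA, stood at rank 24, with 47.0, 80.4 and 198 CPM in TRAP and 1156, 1936 and 3886 CPM in pre-TRAP. Its log2 fold change of -4.43 ± 0.20 lies inside the range of the mitochondrial mRNAs. Of 8 nuclear-retained RNAs, 6 were called lower, where 31.2% of all genes tested were, and 0 higher, with a median of -1.44. Neat1, the scaffold of paraspeckles, stood at -2.60 ± 0.27. The 8 erythroid genes had a median of -3.28 and reached -3.73 (Hbb-bs), so every mitochondrial mRNA was further reduced than any of them.

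Nuclear genes for the same organelle behaved differently. Across all 24242 genes tested 27.9% were called higher in TRAP and 31.2% lower. Of 71 nuclear-encoded subunits of the respiratory chain, 57 were higher in TRAP and 0 lower, with a median log2 fold change of 0.52. Of 77 tested mitochondrial ribosomal protein genes, 59 were higher and 2 lower, with a median of 0.43. Of 22 nuclear genes for mitochondrial transcription, RNA processing and stability, 4 were higher and 4 lower, with a median of -0.07. In neither direction was this a larger share than among all genes tested. Tfam, which packages mitochondrial DNA and starts its transcription, was at 0.29 ± 0.08, and Grsf1, which binds RNA in mitochondrial RNA granules, at 0.58 ± 0.10. Lrpprc, which stabilises mitochondrial mRNAs, was at -0.54 ± 0.17. The RNA polymerase Polrmt did not pass the test, at -0.20 ± 0.16 (adjusted p = 0.287 in edgeR).

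Several members share their counts with other gene models. A search of the whole table, made after the values were seen, found 5 models whose counts followed a member in every library. It kept only models with a summed pre-TRAP count close to that of an mRNA or rRNA member. Gm28661 held 100% to 100.3% of the count of mt-Co2, Gm10222 100% to 104% of mt-Nd4l, Gm28437 101% to 108% of mt-Co3, Gm28438 75.6% to 103% of mt-Nd3, and Gm10925 108% to 119% of mt-Atp6. Together these 5 models took 0.00813% of TRAP counts and 0.333% of pre-TRAP counts. How reads that match a member and a copy were counted is not stated, so the level of these 5 members is uncertain. A model holding a much smaller or larger count than the member it shares reads with would be missed. Other members, mt-Co1 among them, may therefore be affected as well. Gm29216, not among the 5, had a pre-TRAP mean of 758 CPM and a log2 fold change of -4.29 ± 0.30. Whether it shares reads with a member was not tested. Gm10925 had a log2 fold change of -6.26 ± 0.22, against -6.25 ± 0.22 for mt-Atp6, and Gm28438 one of -4.24 ± 0.32, against -4.25 ± 0.32 for mt-Nd3.

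The make-up of the mitochondrial RNA also differed between the methods. Per kilobase of gene length, mt-Co3, mt-Co1 and mt-Co2 led in TRAP at 50.7 ± 29.2, 38.7 ± 22.0 and 30.9 ± 19.7 CPM per kb (SD, n = 16). They were followed by mt-Atp6 at 20.7 ± 8.55 and mt-Nd1 at 16.0 ± 8.48 CPM per kb. The lowest in TRAP were mt-Nd2, mt-Rnr1 and mt-Nd4l at 3.00 ± 1.15, 2.99 ± 1.58 and 2.40 ± 1.30 CPM per kb. In none of the 14 neighbouring pairs of this order did the means differ by more than the larger SD. In pre-TRAP, mt-Co3 and mt-Atp6 led at 1832 ± 484 and 1579 ± 340 CPM per kb (SD, n = 8), and mt-Co2 followed at 895 ± 161. mt-Nd4l and mt-Rnr1 were lowest at 149 ± 41.3 and 55.3 ± 12.5 CPM per kb. There, 4 of the 14 neighbouring pairs differed by more than the larger SD, among them mt-Atp6 and mt-Co2, and mt-Nd4l and mt-Rnr1, whose ranges did not overlap.

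Shares within the member total show the same shift. mt-Co1 made up 22.9% to 34.2% of all counts on members in TRAP libraries and 14.1% to 16.8% in pre-TRAP libraries, with no overlap. mt-Atp6 made up 4.44% to 10.4% in TRAP and 12.8% to 14.1% in pre-TRAP, again with no overlap. mt-Co3 did not separate the methods, at 12.7% to 21.4% in TRAP and 14.8% to 21.5% in pre-TRAP.

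Ratios within a library, which do not depend on scaling between libraries, were compared for 4 pairs with two-sided exact permutation tests adjusted over the 4. The log2 ratio of mt-Rnr2 to mt-Co1 averaged -1.61 ± 0.45 in TRAP (SD, n = 16) and -0.52 ± 0.15 in pre-TRAP (SD, n = 8). The 16 TRAP libraries all lay below the 8 pre-TRAP libraries, and the difference of -1.09 had an adjusted exact p of 5.44e-06, with 1.36e-06 the smallest unadjusted p this design allows. The log2 ratio of mt-Rnr2 to mt-Rnr1 averaged 2.75 ± 0.39 in TRAP and 3.99 ± 0.20 in pre-TRAP, a difference of -1.24 with an adjusted exact p of 5.44e-06, and the highest TRAP library slightly passed the lowest pre-TRAP library. In both ratios mt-Rnr2 was thus the RNA that was lower in TRAP relative to its partner, as counted in polyA libraries. The log2 ratio of mt-Nd6 to mt-Nd5 averaged -1.57 ± 0.34 in TRAP and -1.96 ± 0.30 in pre-TRAP, a difference of 0.39 with an adjusted exact p of 0.0145, and the methods overlapped. In experiment 2 that difference was 0.40 (adjusted exact p = 0.0242) and in experiment 1 it was 0.39 (adjusted exact p = 0.0835), which no longer passed. The log2 ratio of mt-Atp8 to mt-Atp6 averaged -2.96 ± 0.41 in TRAP and -3.03 ± 0.48 in pre-TRAP, and did not differ beyond the spread (difference 0.06, adjusted exact p = 0.745). Much of that spread lay between the experiments, with pre-TRAP means of -3.46 in experiment 1 and -2.59 in experiment 2. The difference was 0.20 in experiment 1 (adjusted exact p = 0.103) and -0.08 in experiment 2 (adjusted exact p = 0.713). Without TRAP libraries 3, 4, 5 and 6 the first 3 ratios differed by -0.95, -1.26 and 0.44 and passed as well.

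Loss of Fgf20 was not detected in the level of any member. In TRAP, 0 of 21 members tested were called between mut and het, where 0.0742% of all 21577 genes were, and 0 had an unadjusted p under 0.05. All 13 protein-coding members had positive estimates, with log2 fold changes, mut over het, of 0.09 to 0.42 and standard errors of 0.25 to 0.44. mt-Co1 had 20.9, 64.8 and 120 CPM as lowest, median and highest values in TRAP mut and 14.9, 55.5 and 128 CPM in TRAP het, so the genotypes overlapped almost fully. Its log2 fold change was 0.30 ± 0.38 (adjusted p = 1.00 in edgeR). In pre-TRAP, 0 of 23 members were called, where 0.00455% of all 21954 genes were, and 2 members, both rRNAs, had an unadjusted p under 0.05. All 13 protein-coding members had negative estimates there, of -0.41 to -0.10.

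The pre-TRAP rRNAs came nearest to a genotype difference. mt-Rnr2 had 555, 614, 800 and 969 CPM in the 4 pre-TRAP mut libraries and 809, 861, 987 and 1154 CPM in the 4 pre-TRAP het libraries. The groups overlapped in these values, with a log2 fold change of -0.40 ± 0.16, an unadjusted p of 0.0234 and an adjusted p of 0.837 in edgeR. mt-Rnr1 behaved alike at -0.39 ± 0.18 (adjusted p = 0.837 in edgeR). A change in the genotype difference between TRAP and pre-TRAP was not detected in any member, with 0 of 23 called and 0 at an unadjusted p under 0.05, and 0% of all 24242 genes called. The interaction estimates of the 13 mRNAs were 0.34 to 0.68 with standard errors of 0.36 to 0.64, so differences of that size could not be detected here. DESeq2's Wald test also called 0 members in each of these 3 comparisons, where it called 0.246% of all genes in TRAP, 0.00911% in pre-TRAP and 0% in the interaction.

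**Figure D3:**
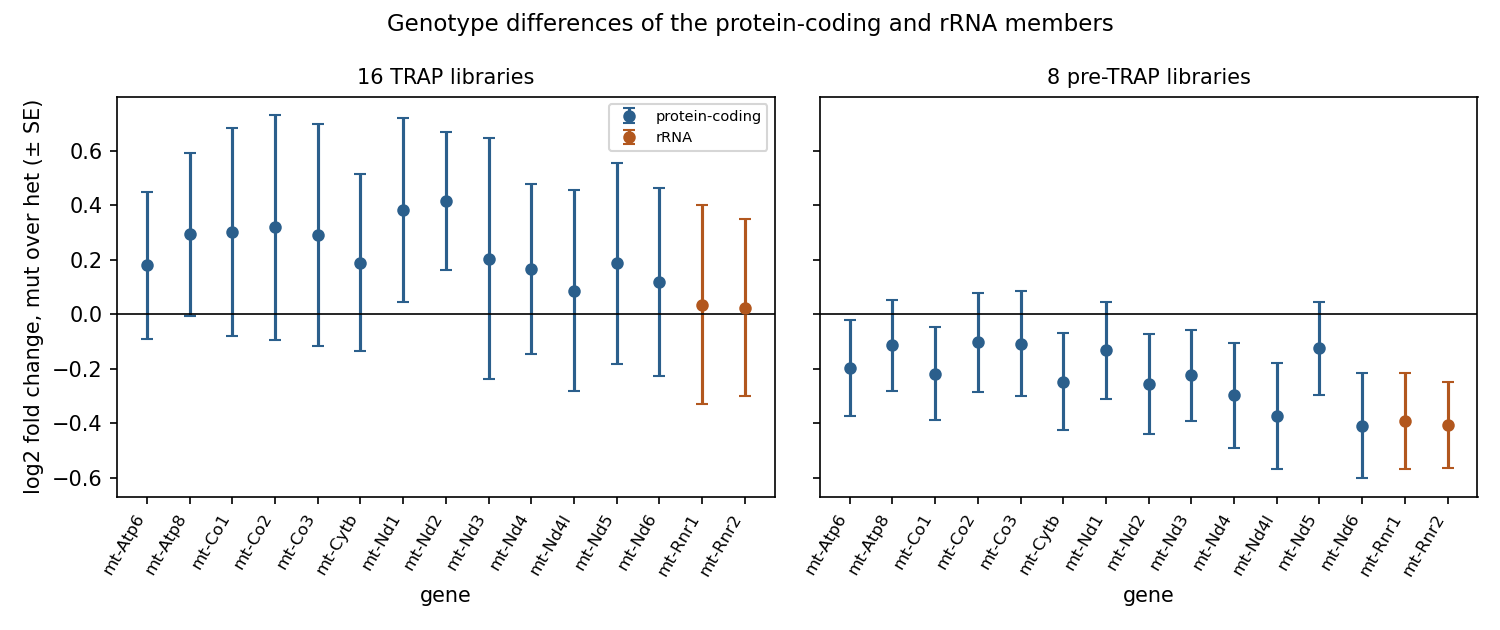
Log2 fold change, mut over het, with its standard error, of the 13 protein-coding and 2 rRNA members in TRAP libraries (left) and pre-TRAP libraries (right). Estimates of the mRNAs run between 0.09 and 0.42 in TRAP and between -0.41 and -0.10 in pre-TRAP, and no member passed the test in either.

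Some members differed between the experiments. In TRAP, 4 of 21 members tested were higher in experiment 2 than in experiment 1 and 0 lower, where 14.1% of all genes were higher and 8.81% lower, so the share called was near that of all genes. In pre-TRAP, 6 of 23 were higher and 1 lower, where 9.74% of all genes were higher and 4.97% lower. Called higher in both methods were mt-Tq, mt-Ta, mt-Tp and mt-Nd3. mt-Tq had 0.664, 0.916 and 3.28 CPM as lowest, median and highest values in the 8 TRAP libraries of experiment 2, and 0, 0.0432 and 0.187 CPM in the 8 of experiment 1. In pre-TRAP it had 2.91, 3.10, 3.63 and 4.51 CPM in experiment 2, and 0.142, 0.330, 0.382 and 0.534 CPM in experiment 1. The experiments did not overlap in either method, and the log2 fold change, experiment 2 over experiment 1, was 4.19 ± 0.50 in TRAP (adjusted p = 2.38e-06 in edgeR) and 3.36 ± 0.33 in pre-TRAP (adjusted p = 4.13e-05 in edgeR). These are small counts, at most 115 in a TRAP library and 160 in a pre-TRAP library.

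mt-Ta differed by 3.67 ± 0.72 in TRAP and 2.04 ± 0.48 in pre-TRAP on the log2 scale, experiment 2 over experiment 1. mt-Tp differed by 2.00 ± 0.50 in TRAP and 1.00 ± 0.24 in pre-TRAP. mt-Nd3, the one mRNA that passed in TRAP, had 0.611, 5.33 and 8.75 CPM in experiment 2 and 0.496, 2.04 and 2.45 CPM in experiment 1. In pre-TRAP it had 55.6, 63.8, 76.0 and 92.0 CPM in experiment 2 and 35.8, 39.6, 40.8 and 47.4 CPM in experiment 1, with no overlap. Its log2 fold change was 1.63 ± 0.45 in TRAP, where the experiments overlapped, and 0.80 ± 0.17 in pre-TRAP. In pre-TRAP alone mt-Te was higher at 1.2 ± 0.31 and mt-Atp8 at 0.59 ± 0.17, and mt-Cytb was lower at -0.59 ± 0.18. The mt-Cytb call was lost without any of 6 of the 8 pre-TRAP libraries (18, 20, 21, 22, 23 or 24), and the higher calls numbered 2 in place of 6 without pre-TRAP library 20. Without pre-TRAP library 19 the lower calls numbered 3, with mt-Rnr2 and mt-Co3 beside mt-Cytb. The difference between the methods in these effects was tested as an interaction, and 0 of 23 members passed, where 0.0371% of all genes did. No member had an unadjusted p under 0.05 in that interaction, and DESeq2's Wald test called 0 members and 0.186% of all genes.

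**Figure D4:**
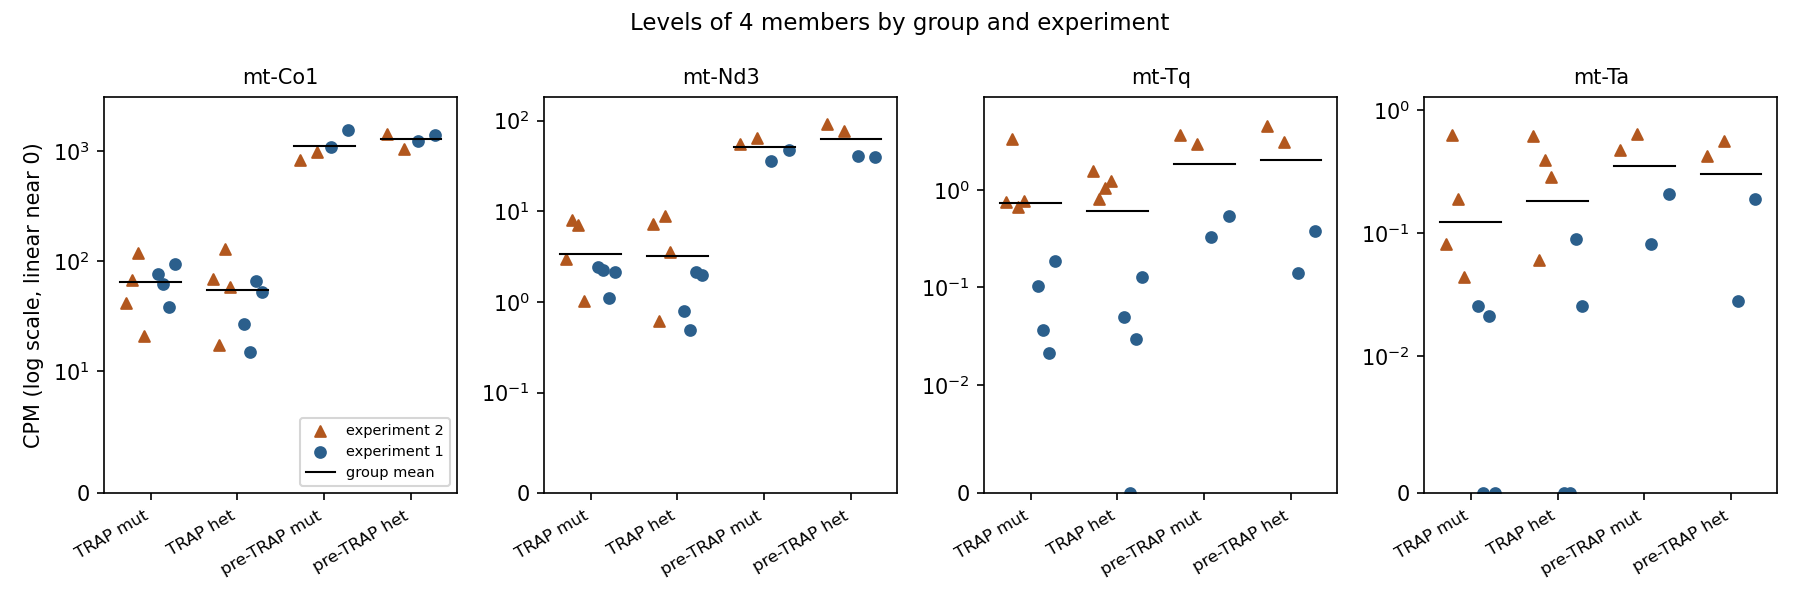
CPM of mt-Co1, mt-Nd3, mt-Tq and mt-Ta in each library (log scale, linear near 0), by group, with triangles for experiment 2, circles for experiment 1 and a line at the group mean. The experiments separate in mt-Tq within each group, whereas in mt-Co1 they mix.

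The mt-Co1 left in TRAP, the one member examined in this way, varied together with nuclear Malat1. Across the 16 TRAP libraries mt-Co1 and Malat1, both as log2(CPM + 0.5), had a Pearson's r of 0.66 (permutation p = 0.00598, adjusted over 9 relations 0.0269) and a Spearman's rho of 0.66 (permutation p = 0.00671, adjusted 0.0302). Without the 2 libraries farthest from the median of Malat1 r was 0.69 (n = 14). Within experiment 2 r was 0.91 (n = 8, exact permutation p = 0.00218, adjusted 0.0196) and rho 0.93 (exact p = 0.00223, adjusted 0.0201). Within experiment 1 r was 0.78 (n = 8, exact permutation p = 0.0206, adjusted 0.0555) and rho 0.71 (exact p = 0.0576, adjusted 0.0867), which did not pass. Without TRAP libraries 3, 4, 5 and 6 r was 0.71 (n = 12, unadjusted permutation p = 0.0105). The libraries lowest in Malat1 were also low in mt-Co1, with 20.9 CPM of mt-Co1 and 47.5 CPM of Malat1 in TRAP mut library 8, and 17.3 CPM of mt-Co1 and 47.0 CPM of Malat1 in TRAP het library 11. TRAP het library 15, the lowest in mt-Co1 at 14.9 CPM, had 70.9 CPM of Malat1.

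mt-Co1 was set against Col3a1, a collagen of mesenchyme, and Hba-a1, an erythroid globin, in the same way. Col3a1 gave r = 0.54 (permutation p = 0.0285, adjusted 0.0555) and rho = 0.50 (permutation p = 0.0494, adjusted 0.0867). Hba-a1 gave r = 0.54 (permutation p = 0.0308, adjusted 0.0555) and rho = 0.49 (permutation p = 0.0578, adjusted 0.0867). Neither passed after adjustment. Without the 2 farthest libraries r was 0.54 for Col3a1 and 0.39 for Hba-a1 (n = 14 each). The Col3a1 relation within experiment 2 rested on such libraries, since r turned to -0.45 without them (n = 6). Within experiment 2 r was 0.57 for Col3a1 and 0.44 for Hba-a1, and within experiment 1 it was 0.61 and 0.70, with adjusted exact permutation p-values of 0.0810 to 0.279.

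**Figure D5:**
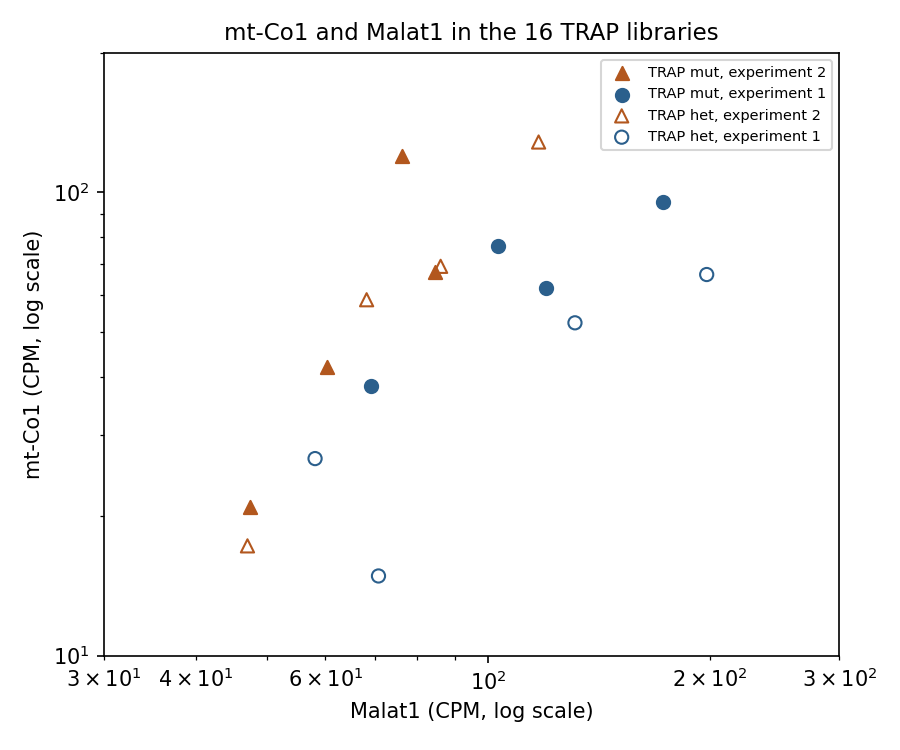
mt-Co1 against Malat1 in the 16 TRAP libraries, both in CPM on log axes, filled for mut and open for het, with triangles for experiment 2 and circles for experiment 1. Values span 14.9 to 128 CPM for mt-Co1 and 47.0 to 198 CPM for Malat1, and libraries low in Malat1 tend to be low in mt-Co1.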

How the data were processed

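The authors deposited raw counts, whole numbers per Ensembl gene in 24 libraries, not normalized. Genome build GRCm38.p5 is named in the submitters' processing notes, as are the tools DESeq2 and STAR. For versions, counting tool, strand setting and reads with several matches, the entry is: not given in the sources used here. Per the labels, a Picopure kit served for RNA and Clontech SMARTer for cDNA.

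Of 53946 genes, 53274 had a symbol. Gene lengths and overlaps came from RefSeq on GRCm38.p6, so no coordinates are given. The fits used edgeR 4.0.16 (R 4.3.3): TMM scaling, filterByExpr with a minimum count of 10, quasi-likelihood F tests, experiment and genotype as terms, and Benjamini-Hochberg adjustment over all genes tested. CPM were scaled by the TMM factors, ratios used a pseudocount of 0.5 counts, and correlations one of 0.5 CPM. Within groups, 68 pairs of libraries differed beyond counting error (chi-square per degree of freedom of at least 23.8). The fits were tested on simulated counts.

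The members and all 14 gene lists were chosen with earlier results of these data known. Any member, Fgf20, Malat1, Neat1 and list genes could be named. The 5 gene models that follow members, and Gm29216, were named after their values were seen. Alternatives were DESeq2 1.42.0 (Wald test, and its size factors in edgeR), total-count scaling, scaling without members, no filter, no experiment term, each experiment or genotype alone, each library left out, and, added after seeing the data, no TRAP libraries 3, 4, 5 and 6.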

Additional observations from a re-analysis of the deposited data

Results flagged for a closer look

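In 92 sets of a member and a group, 11 had a library far from the others of its group by Dixon's criterion, which chance gives in about 1 group in 20. They gathered in 2 libraries of TRAP mut. Library 6 was high in mt-Cytb (33.8 CPM), mt-Nd5 (21.5 CPM), mt-Nd6 (5.69 CPM), mt-Nd4l (1.65 CPM) and mt-Tl1 (0.124 CPM). It is also the TRAP library with the most mesenchyme RNA, at 1206 CPM before TMM scaling over 8 genes, whose part was not tested. Library 2 was high in mt-Tq (3.28 CPM), mt-Tn (1.2 CPM), mt-Tc (0.742 CPM) and mt-Ta (0.627 CPM). In pre-TRAP, mut library 22 was high in mt-Nd5 (462 CPM) and het library 17 in mt-Nd2 (269 CPM). Leaving out any of these libraries left 23 members called lower in TRAP than in pre-TRAP.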

How the results depend on the processing

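No paired analysis was possible because every library has a number of its own and no label ties libraries of different groups. The 23 members called lower in TRAP stayed at 23 when any library was left out and under DESeq2 (31.6% of all genes lower) and every scaling tried. They were 33 with no filter, and 21 in experiment 2 alone (without mt-Ta at -0.84 and mt-Tn at -1.04) and with no experiment term (without mt-Ta at -1.08 and mt-Tq at -1.54). The genotype and interaction counts stayed at 0 under every alternative. Except under DESeq2, member counts in this paragraph stand without the share of all genes called, so they show only how the calls moved. Over all counts and summary values, 666 alternative values stayed within the tolerance (1.5 times for a count, 1 SD for a share, the same side of the threshold for a ratio or correlation), 19 moved beyond it, 4 changed sign and 1 no longer passed. In TRAP, members higher in experiment 2 numbered 2 in mut alone and 2 in het alone, and 1 was lower with no filter. In pre-TRAP they numbered 2 in mut and 1 in het, and 2 to 6 leaving out a library. Lower members numbered 3 in mut, 0 in het, 0 with total-count scaling, and 0 to 3 leaving out a library. Over counts of protein-coding genes alone, pre-TRAP shares were 1.08%, 0.136% and 0.00351% for mRNAs, rRNAs and tRNAs. The mt-Nd6 to mt-Nd5 difference in experiment 1 was 0.39 and did not pass. The mt-Atp8 to mt-Atp6 difference was -0.0821 in experiment 2 and ranged between -0.0042 and 0.14 leaving out a library, passing nowhere. The causes were not tested. Low counts limit the tRNAs, 14 of which could not be tested, and unknown handling of strand and of reads with several matches limits overlapping and copied genes.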
